A study of Mus musculus with 13 samples.

Results

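The 39 genes described here encode the acid compartment of the cell: the subunits of the vacuolar proton pump, the cathepsins, other lysosomal enzymes and cofactors, lysosomal membrane proteins and the transcription factor Tfeb. They were chosen by symbol, with earlier results of these data known, and all 39 were found among the 55357 genes of the count table and passed the filter on low counts. Total RNA was taken from lymphedematous mouse tails, swollen because lymph does not drain, and was sequenced after ribosomal RNA had been removed. There were 6 TNTProx1 and 7 TNTSham samples, all taken at day 28 after TNT from mice aged 12 weeks. TNT most likely stands for tissue nanotransfection, in which a brief electric pulse delivers nucleic acids to skin, and Prox1 encodes a transcription factor needed to form lymphatic endothelium. The labels give no strain and do not say what the sham groups received or whether samples came from separate animals, so p-values measure the spread between these samples. The comparison asked whether the lysosome as a whole, or only the subunits and proteases typical of osteoclasts and macrophages, stood higher in TNTProx1 tissue.

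Lysosomes digest material at an acid pH that the vacuolar proton pump maintains. The pump has a cytosolic V1 sector that hydrolyses ATP and a membrane V0 sector that carries the protons, and several of its subunits exist as alternative forms encoded by separate genes. Osteoclasts place pumps with the forms encoded by Tcirg1 and Atp6v0d2 in the membrane that faces bone, and loss of Tcirg1 causes osteopetrosis. Macrophages are rich in lysosomes and in cathepsin S and legumain. Tfeb binds an E-box in the promoters of many lysosomal genes and raises their transcription.

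The members' values differed with the TNTProx1 libraries included. In the 13 libraries, 36 of the 39 members had a positive log2 fold change (TNTProx1 over TNTSham), at a median of 0.25, against a median of -0.02 over all 22876 genes tested, of which 47.7% were positive. The libraries TNTProx1 4, 5 and 6, which stand apart from the other 10 across the transcriptome, had the highest summed levels of the members. Without them the median over the members was 0.04, and 21 of 39 were positive, on a background of 49.8% of all genes tested with 10 libraries. The 7 members listed as typical of osteoclasts or macrophages (Tcirg1, Atp6v0d2, Ctss, Ctsc, Ctsz, Ctsh and Lgmn) had a median of 0.40 with 13 libraries and 0.38 with 10. The 32 broadly expressed members had a median of 0.21 with 13 libraries and -0.04 with 10. The lists of 7 and 32 were drawn up with earlier results of these data known, and no test compared them. In tissue RNA, more cells of a type and more RNA per cell cannot be told apart.

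In the edgeR quasi-likelihood fit, 0 of 39 members had a Benjamini-Hochberg adjusted p under 0.05, on a background of 0% of all genes. That count was 10 without TNTProx1 1, where 589 of all genes were called, and 2 without TNTSham 5, where 34 were. At an unadjusted p under 0.05 16 members (41.0%) were higher in TNTProx1, against 8.33% of all tested genes and 12.5% of those within the members' range of abundance. Mcoln1 was the 1 member lower at that threshold, where the background was 3.92%. DESeq2 called 9 members, all higher, against 1.98% of all genes called higher by that tool, which made more false calls than edgeR on simulated counts. With 10 libraries 8 members were higher at an unadjusted p under 0.05, which is 20.5%, against a background of 9.34%. These 8 were Tcirg1, Atp6v0d2, Ctsz, Lgmn, Hexa, Gaa, Grn and Psap.

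**Figure D1:**
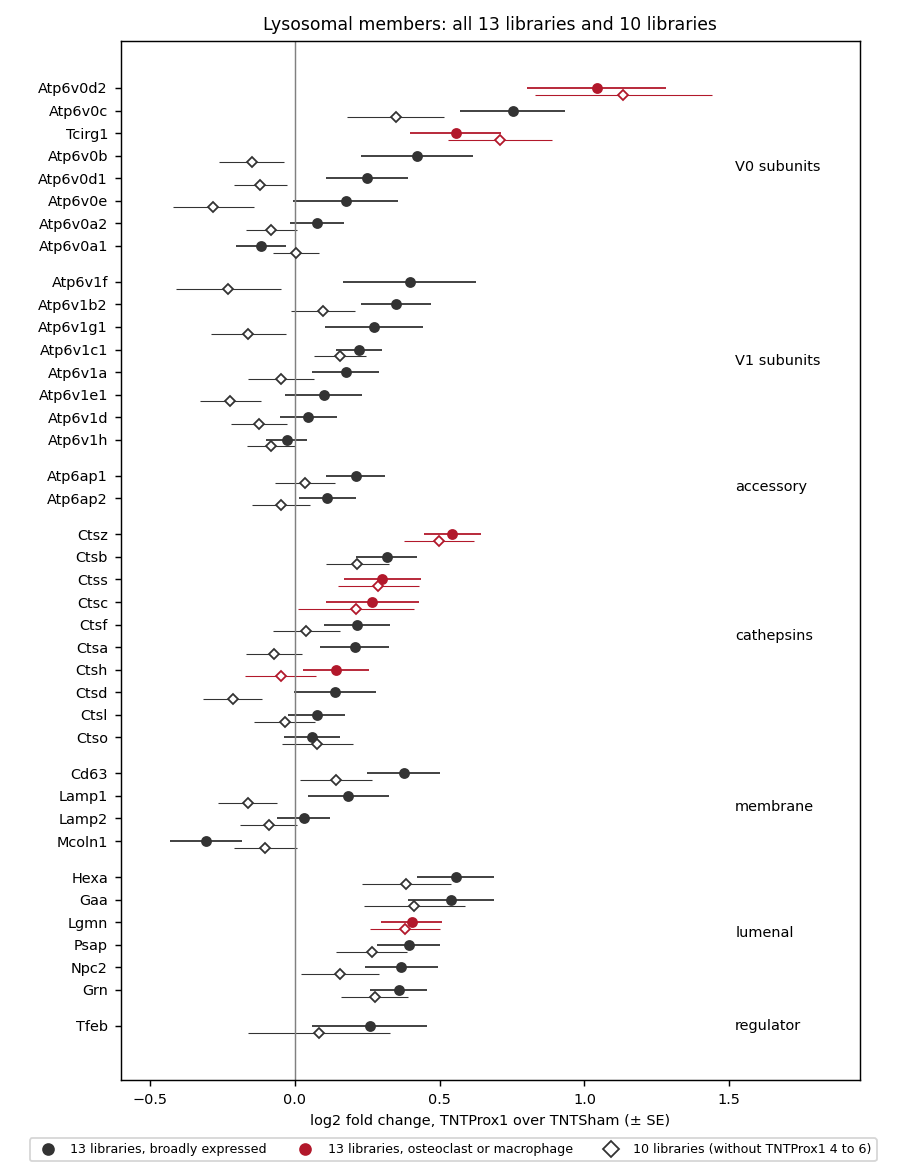
Log2 fold change (TNTProx1 over TNTSham, x axis, ± SE from edgeR) of the 39 members by role. Filled circles are the fit of 13 libraries and open diamonds the fit without TNTProx1 4 to 6, with the 7 osteoclast or macrophage members in red. Open diamonds lie right of 0 for 15 of the 32 broadly expressed members. They lie right of 0 for 6 of the 7 members in red, Ctsh being the exception.

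Libraries held 34970304 to 48007392 counts in TNTProx1 and 29691929 to 47868919 in TNTSham, and the members together took 0.653 to 0.893% of counts in TNTProx1 and 0.629 to 0.697% in TNTSham. Genes of the annotation class TEC (models that await experimental proof) took 0.136 to 0.193% of the total in TNTProx1 4 to 6, 0.565 to 0.745% in TNTProx1 1 to 3 and 0.378 to 0.701% in TNTSham. No TNTSham library fell into that low set, so this split and the group cannot be told apart within it. Values for 10 libraries are given beside the main ones. TNTProx1 4 to 6 were set apart by the data, so p-values with 10 libraries are a description. Keratinocyte and fibroblast markers were detected in all libraries, at a summed 7015 to 60978 CPM and 43927 to 119193 CPM in TNTProx1 and 30309 to 46410 CPM and 32711 to 58676 CPM in TNTSham. All 6 fibroblast markers were positive, at a median of 0.36 with 13 libraries and 0.42 with 10, and 7 of 8 keratinocyte markers were negative, at a median of -0.33 with 13 libraries and -0.81 with 10. Their part in the members' values was not tested. CPM is edgeR's count scaled to a common library size, with TMM, its trimmed-mean normalization, setting the size of each library.

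Promoter sites are shown for the members that hold the full Tfeb E-box, so that their values can be read beside it. RefSeq windows of 250 bases before to 50 bases after a transcription start (build GRCm38.p6, older than the GRCm39 of the counts) were found for 31 of the 39 members. The palindrome TCACGTGA, the centre of the Tfeb element and the same on both strands, occurred in the windows of 6 of these 31 members (19.4%), against 1.12% of 27025 genes. In the lines that follow, each site is given 5′ to 3′ on the gene's strand with the palindrome in capitals.
Mcoln1, chr8:3500462-3500491, plus strand: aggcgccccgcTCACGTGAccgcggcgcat
Ctsd, chr7:142387908-142387937, minus strand: tcgcccgcgtcTCACGTGAcccgttgaggg
Ctsa, chr2:164833749-164833778, plus strand: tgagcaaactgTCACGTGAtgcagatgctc
Atp6v0d1, chr8:105566050-105566079, minus strand: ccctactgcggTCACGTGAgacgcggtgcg
Atp6v1a, chr16:44139373-44139402, minus strand: ttttttttaaaTCACGTGAtaggcttaacg
Atp6v0e, chr17:26676387-26676416, plus strand: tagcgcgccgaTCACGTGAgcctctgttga
Ctsa held a second copy of the palindrome in the same window. With the shorter core CACGTG, 12 of 31 members (38.7%) had a match, against 8.09% of genes, and these included Gaa, Lgmn, Lamp1 and Ctsl. The Ctsd window also held a further CACGTG within its first bases, left in lower case below. The whole windows of Ctsd, with the palindrome in capitals, and of Ctsz, the member of smallest p, which held no CACGTG, are these.
Ctsd, chr7:142387778-142388077, minus strand: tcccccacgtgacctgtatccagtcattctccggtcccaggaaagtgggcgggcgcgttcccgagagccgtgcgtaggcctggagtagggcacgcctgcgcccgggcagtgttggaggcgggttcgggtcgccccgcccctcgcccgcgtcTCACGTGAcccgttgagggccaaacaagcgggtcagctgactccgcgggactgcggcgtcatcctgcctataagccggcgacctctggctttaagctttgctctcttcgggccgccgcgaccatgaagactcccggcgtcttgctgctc
Ctsz, chr2:174438990-174439289, minus strand: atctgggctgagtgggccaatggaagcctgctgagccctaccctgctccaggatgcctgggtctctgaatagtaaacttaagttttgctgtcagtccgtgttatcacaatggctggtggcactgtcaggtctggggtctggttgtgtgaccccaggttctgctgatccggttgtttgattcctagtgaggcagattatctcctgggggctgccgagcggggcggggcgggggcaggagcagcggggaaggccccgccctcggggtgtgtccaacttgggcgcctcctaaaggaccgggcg
A match is a description of letters and not a binding site. The 6 members with the palindrome had log2 fold changes of -0.31 (Mcoln1), 0.14 (Ctsd), 0.21 (Ctsa), 0.25 (Atp6v0d1), 0.18 (Atp6v1a) and 0.18 (Atp6v0e). With 10 libraries all 6 were negative. All 6 are broadly expressed members, and of the 32 such members 15 were positive with 10 libraries. A link between the sign and the palindrome was not tested.

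Among the V0 subunits, the osteoclast form Atp6v0d2 (ENSMUSG00000028238) had the largest fold change of the 39 members. Its level was 40.3, 40.3, 65.4, 43.4, 43.2 and 40.8 CPM in TNTProx1 1 to 6, against 25.6, 18.4, 17.4, 12.2, 40.9, 25.5 and 14.9 CPM in TNTSham 1 to 7. All TNTProx1 libraries lay above 6 of the 7 TNTSham libraries, and TNTSham 5 alone reached into the TNTProx1 range. The edgeR log2 fold change was 1.04 ± 0.24 SE (adjusted p = 0.116), with means of 45.6 ± 9.81 CPM (SD, n = 6) and 22.1 ± 9.69 CPM (SD, n = 7). With 10 libraries it was 1.13 ± 0.30, so TNTProx1 1 to 3 showed it as well. Its broadly expressed paralog Atp6v0d1 had 66.7, 70.8, 72.9, 101, 124 and 106 CPM in TNTProx1 1 to 6, against 86.5, 73.8, 77.4, 68.0, 71.6, 82.2 and 72.7 CPM in TNTSham 1 to 7. Here only TNTProx1 4 to 6 were above the TNTSham range, and the log2 fold change of 0.25 ± 0.14 became -0.12 ± 0.09 with 10 libraries.

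The proton-carrying subunit also has an osteoclast form. Tcirg1 had 42.8, 70.2, 78.7, 47.6, 58.7 and 46.2 CPM in TNTProx1 1 to 6, against 32.9, 30.4, 36.3, 38.9, 47.4, 47.7 and 39.5 CPM in TNTSham 1 to 7. TNTProx1 2, 3 and 5 lay above the TNTSham range and TNTProx1 1, 4 and 6 within it, at a edgeR log2 fold change of 0.56 ± 0.16 (adjusted p = 0.153), which was 0.71 ± 0.18 with 10 libraries. Atp6v0a1, the form abundant in neurons, had 127, 121, 112, 88.6, 109 and 104 CPM in TNTProx1 1 to 6, against 118, 118, 116, 127, 125, 119 and 114 CPM in TNTSham 1 to 7. Atp6v0a2, an endosomal and Golgi form, had 83.6, 73.4, 83.4, 87.9, 105 and 102 CPM in TNTProx1 1 to 6, against 91.6, 86.5, 81.3, 88.6, 85.8, 74.1 and 84.4 CPM in TNTSham 1 to 7. The groups overlapped for both of these forms, with log2 fold changes of -0.11 ± 0.09 and 0.08 ± 0.09. Atp6v0a1 lay below every TNTSham library in TNTProx1 3 to 6.

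Whether the osteoclast forms moved apart from their paralogs within the same libraries was tested directly. The log2 ratio of Atp6v0d2 to Atp6v0d1 averaged -0.96 ± 0.50 in TNTProx1 (SD, n = 6) and -1.86 ± 0.54 in TNTSham (SD, n = 7). The difference of 0.89 had an exact two-sided permutation p of 0.0134 over 1716 splits, and 0.0201 after adjustment over the 3 ratios tested. This ratio lay above every TNTSham value in 2 of 6 TNTProx1 libraries, and TNTSham 5, at -0.80, lay within the TNTProx1 range. For Tcirg1 to Atp6v0a1 the ratio averaged -0.97 ± 0.36 in TNTProx1 and -1.62 ± 0.23 in TNTSham, a difference of 0.65 (exact permutation p = 0.00466, adjusted p = 0.0140). It lay above every TNTSham value in 5 of 6 TNTProx1 libraries, TNTProx1 1 being the exception. In TNTProx1 4 and 6, Tcirg1 itself lay within the TNTSham range and Atp6v0a1 below it. Against Atp6v0a2 the difference was 0.46 and did not pass (exact permutation p = 0.0612), although it passed without TNTProx1 6 (p = 0.0316) or without TNTSham 6 (p = 0.0238). Here 2 of 6 TNTProx1 libraries lay above every TNTSham value. With 10 libraries the 3 differences were 1.29, 0.67 and 0.75, each with an adjusted exact permutation p of 0.0333. TNTProx1 4 to 6 were left out because of their own values, so these p-values are a description and not a test. Per exonic length, Atp6v0d2 made up 18.6 to 37.2% of the summed level of Atp6v0d1 and Atp6v0d2 in TNTProx1 and 10.6 to 27.4% in TNTSham. The ratios were chosen with earlier results of these data known.

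**Figure D2:**
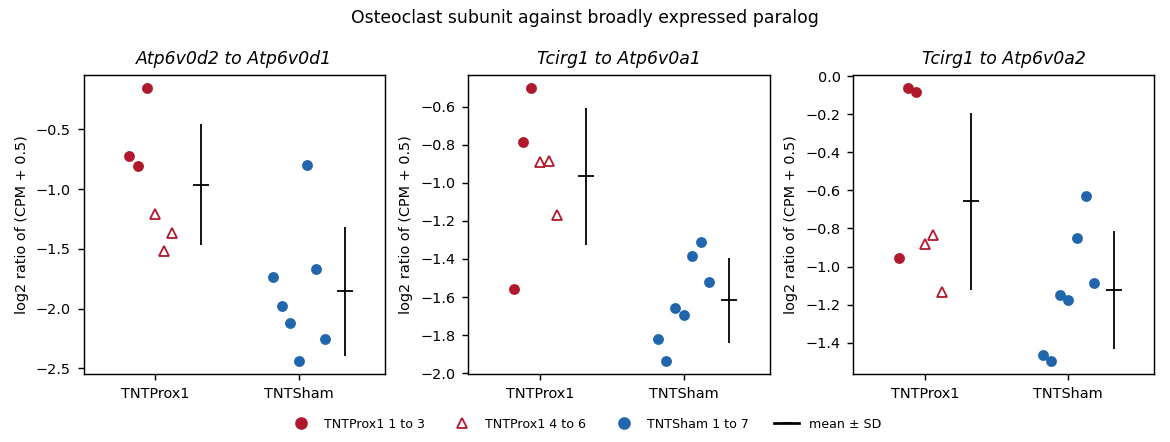
Log2 ratio of an osteoclast pump subunit to its broadly expressed paralog (y axis, from CPM + 0.5) in each library, with mean and SD. TNTProx1 values lie mostly above TNTSham values for Atp6v0d2 to Atp6v0d1 and for Tcirg1 to Atp6v0a1. In the first panel TNTSham 5 lies within the TNTProx1 range.

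The remaining V0 subunits were highest in TNTProx1 4 to 6. Atp6v0c, which encodes the proteolipid of the proton-carrying ring, had 57.3, 85.7, 108, 144, 137 and 131 CPM in TNTProx1 1 to 6, against 67.4, 57.7, 60.9, 57.9, 62.5, 83.5 and 69.2 CPM in TNTSham 1 to 7. TNTProx1 2 to 6 lay above the TNTSham range and TNTProx1 1 below all of it. Its edgeR log2 fold change was 0.75 ± 0.18 SE (adjusted p = 0.123) and 0.35 ± 0.17 with 10 libraries. Atp6v0b, a further ring proteolipid, was at 73.1 to 85.4 CPM in TNTProx1 4 to 6, at 35.1 to 45.6 CPM in TNTProx1 1 to 3 and at 38.6 to 52.3 CPM in TNTSham. Atp6v0e, a small membrane subunit, was at 74.8 to 98.7 CPM in TNTProx1 4 to 6 and 43.0 to 54.3 CPM in TNTProx1 1 to 3. TNTSham reached 78.1 CPM for Atp6v0e, so TNTProx1 6 lay within its range.

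The 8 V1 subunits behaved much like the broadly expressed V0 subunits. Their median log2 fold change was 0.20 with 13 libraries and -0.10 with 10, where 2 of 8 were positive. Only Atp6v1b2, the nucleotide-binding subunit used by most cells, and Atp6v1c1, a regulatory subunit, were below an unadjusted p of 0.05. Both were higher in TNTProx1, as were 8.33% of all tested genes at that threshold. Atp6v1b2 averaged 174 ± 31.1 CPM in TNTProx1 and 137 ± 16.5 CPM in TNTSham, a log2 fold change of 0.35 ± 0.12 that was 0.10 ± 0.11 with 10 libraries. Atp6v1c1 averaged 51.6 ± 3.97 CPM in TNTProx1 and 44.3 ± 3.54 CPM in TNTSham, a log2 fold change of 0.22 ± 0.08 that was 0.16 ± 0.09 with 10 libraries. The widest split inside TNTProx1 among all members was that of Atp6v1f. It was at 33.1 to 36.2 CPM in TNTProx1 4 to 6 and 11.8 to 19.4 CPM in TNTProx1 1 to 3. Atp6v1a, Atp6v1d, Atp6v1e1, Atp6v1g1 and Atp6v1h had log2 fold changes of -0.03 to 0.27. The accessory proteins Atp6ap1 and Atp6ap2, which help assemble and sort the pump, had 0.21 ± 0.10 and 0.11 ± 0.10.

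Of the 10 cathepsins, all had a positive log2 fold change with 13 libraries and 6 with 10. Ctsz (ENSMUSG00000016256), a carboxypeptidase of the cathepsin family found in myeloid cells, had the smallest p of the 39 members and ranked 12 among all tested genes. It had 84.7, 115, 105, 111, 109.8 and 102 CPM in TNTProx1 1 to 6, against 79.7, 61.5, 70.7, 62.5, 83.1, 77.1 and 67.1 CPM in TNTSham 1 to 7. Every TNTProx1 library lay above every TNTSham library, with TNTProx1 1 closest to them. The edgeR log2 fold change was 0.54 ± 0.10 SE (adjusted p = 0.0848), and 0.50 ± 0.12 with 10 libraries. Ctsz and Lgmn were the 2 members of 39 whose groups did not overlap, against 0.398% of all tested genes.

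The other cathepsins were less separated. Ctsb, an abundant cysteine protease, had 738, 931, 879, 959, 1108 and 845 CPM in TNTProx1 1 to 6, against 838, 692, 725, 727, 703, 752 and 673 CPM in TNTSham 1 to 7. All TNTProx1 libraries but the first lay above TNTSham (log2 fold change 0.32 ± 0.10, and 0.22 ± 0.11 with 10 libraries). Ctss, the protease that trims the class II invariant chain in antigen-presenting cells, had 227, 249.8, 184, 281, 224 and 166 CPM in TNTProx1 1 to 6, against 214, 146, 196, 155, 175, 209.9 and 164 CPM in TNTSham 1 to 7. TNTProx1 1, 2, 4 and 5 lay above the TNTSham range and TNTProx1 3 and 6 within it, at a log2 fold change of 0.30 ± 0.13 that was 0.29 ± 0.14 with 10 libraries. Ctsc, which activates serine proteases of immune cells, and Ctsh, an aminopeptidase, had 0.27 ± 0.16 and 0.14 ± 0.11.

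Ctsd, the main lysosomal aspartic protease, had the widest split between TNTProx1 4 to 6 and TNTProx1 1 to 3 among the 10 cathepsins, at a ratio of means of 1.55. It had 465, 452, 499, 695, 763 and 738 CPM in TNTProx1 1 to 6, against 627, 563, 519.8, 546, 505, 496 and 567 CPM in TNTSham 1 to 7. TNTProx1 4 to 6 lay above the TNTSham range, while TNTProx1 1 and 2 lay below it, so the log2 fold change of 0.14 ± 0.14 became -0.21 ± 0.10 with 10 libraries. Ctsl, a cysteine protease of most cells, had 374, 301, 386, 431, 431 and 366 CPM in TNTProx1 1 to 6, against 330.1, 347, 358, 396, 345, 389.9 and 368 CPM in TNTSham 1 to 7. These groups overlapped almost fully (0.08 ± 0.10). Ctsa, a serine carboxypeptidase that also protects other lysosomal enzymes, Ctsf and Ctso had log2 fold changes of 0.21 ± 0.12, 0.22 ± 0.11 and 0.06 ± 0.10.

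The 6 lumenal proteins were the only role group in which every member was higher at an unadjusted p under 0.05. Of all tested genes 8.33% were higher at that threshold, and 12.5% of those within the members' range of abundance. The lumenal proteins had a median log2 fold change of 0.40 with 13 libraries and 0.33 with 10. With 10 libraries 5 of the 6 stayed higher at that threshold, against 9.34% of genes. Lgmn, the asparaginyl endopeptidase legumain that activates cathepsins, had 209, 261, 235, 236, 276 and 211 CPM in TNTProx1 1 to 6, against 207, 161, 189.6, 158, 188, 204 and 151 CPM in TNTSham 1 to 7. The groups did not overlap, though TNTProx1 1 and 6 lay just above TNTSham 1 (0.40 ± 0.10 SE; edgeR adjusted p = 0.131; 0.38 ± 0.12 with 10 libraries). Hexa, a hexosaminidase subunit whose loss causes Tay-Sachs disease in humans, had 88.0, 118, 112, 124, 137 and 136 CPM in TNTProx1 1 to 6, against 112, 75.3, 74.6, 73.0, 91.6, 70.1 and 71.4 CPM in TNTSham 1 to 7. TNTSham 1 and 5 lay within the TNTProx1 range and the other TNTSham libraries below it (0.56 ± 0.13, and 0.39 ± 0.15 with 10 libraries).

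Enzyme cofactors and growth-factor precursors of the lumen followed the same pattern. Psap, the precursor of the saposins that present lipids to lysosomal enzymes, was the most abundant member per exonic length and had 761, 1048, 1072, 1089, 1171 and 1141 CPM in TNTProx1 1 to 6, against 799, 726, 847, 731, 785, 864 and 828 CPM in TNTSham 1 to 7. Grn, the progranulin gene, had 239, 310.1, 310.1, 302, 344 and 314 CPM in TNTProx1 1 to 6, against 268, 216, 249, 213, 249.9, 246 and 211 CPM in TNTSham 1 to 7. Gaa, the acid glucosidase that breaks down glycogen, had 44.6, 72.8, 96.4, 68.3, 89.9 and 94.3 CPM in TNTProx1 1 to 6, against 51.9, 52.3, 53.4, 48.0, 62.1, 56.7 and 49.7 CPM in TNTSham 1 to 7. In all 3 genes TNTProx1 2 to 6 lay above the TNTSham range and TNTProx1 1 did not, and their log2 fold changes were 0.39 ± 0.11, 0.36 ± 0.10 and 0.54 ± 0.15, or 0.27, 0.28 and 0.41 with 10 libraries. Npc2, a cholesterol carrier, had 0.37 ± 0.13, and 0.16 ± 0.13 with 10 libraries.

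The membrane proteins differed among themselves. Lamp1, the main glycoprotein of the lysosomal membrane, had 385, 398, 412, 623, 644 and 573 CPM in TNTProx1 1 to 6, against 482, 448, 476, 376, 409, 448 and 473 CPM in TNTSham 1 to 7. It was above the TNTSham range in TNTProx1 4 to 6 and within it in TNTProx1 1 to 3 (0.19 ± 0.14, and -0.16 ± 0.10 with 10 libraries). Lamp2 had a log2 fold change of 0.03 ± 0.09, and the tetraspanin gene Cd63 of 0.38 ± 0.13, which was 0.14 ± 0.12 with 10 libraries. Mcoln1, the lysosomal calcium channel, had a negative log2 fold change, with 36.6, 41.4, 41.8, 31.7, 31.0 and 25.1 CPM in TNTProx1 1 to 6, against 34.4, 38.4, 46.2, 47.2, 42.8, 45.8 and 44.8 CPM in TNTSham 1 to 7. TNTProx1 4 to 6 were below every TNTSham library, so that its log2 fold change of -0.31 ± 0.12 was -0.10 ± 0.11 with 10 libraries.

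Tfeb itself was the least abundant member per exonic length and did not separate the groups. It had 7.20, 13.8, 12.8, 14.5, 15.7 and 12.3 CPM in TNTProx1 1 to 6, against 7.86, 9.59, 12.4, 9.99, 8.35, 9.72 and 16.5 CPM in TNTSham 1 to 7. The highest value was in TNTSham 7 and the lowest in TNTProx1 1. Its edgeR log2 fold change was 0.26 ± 0.20 SE (adjusted p = 0.640).

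**Figure D3:**
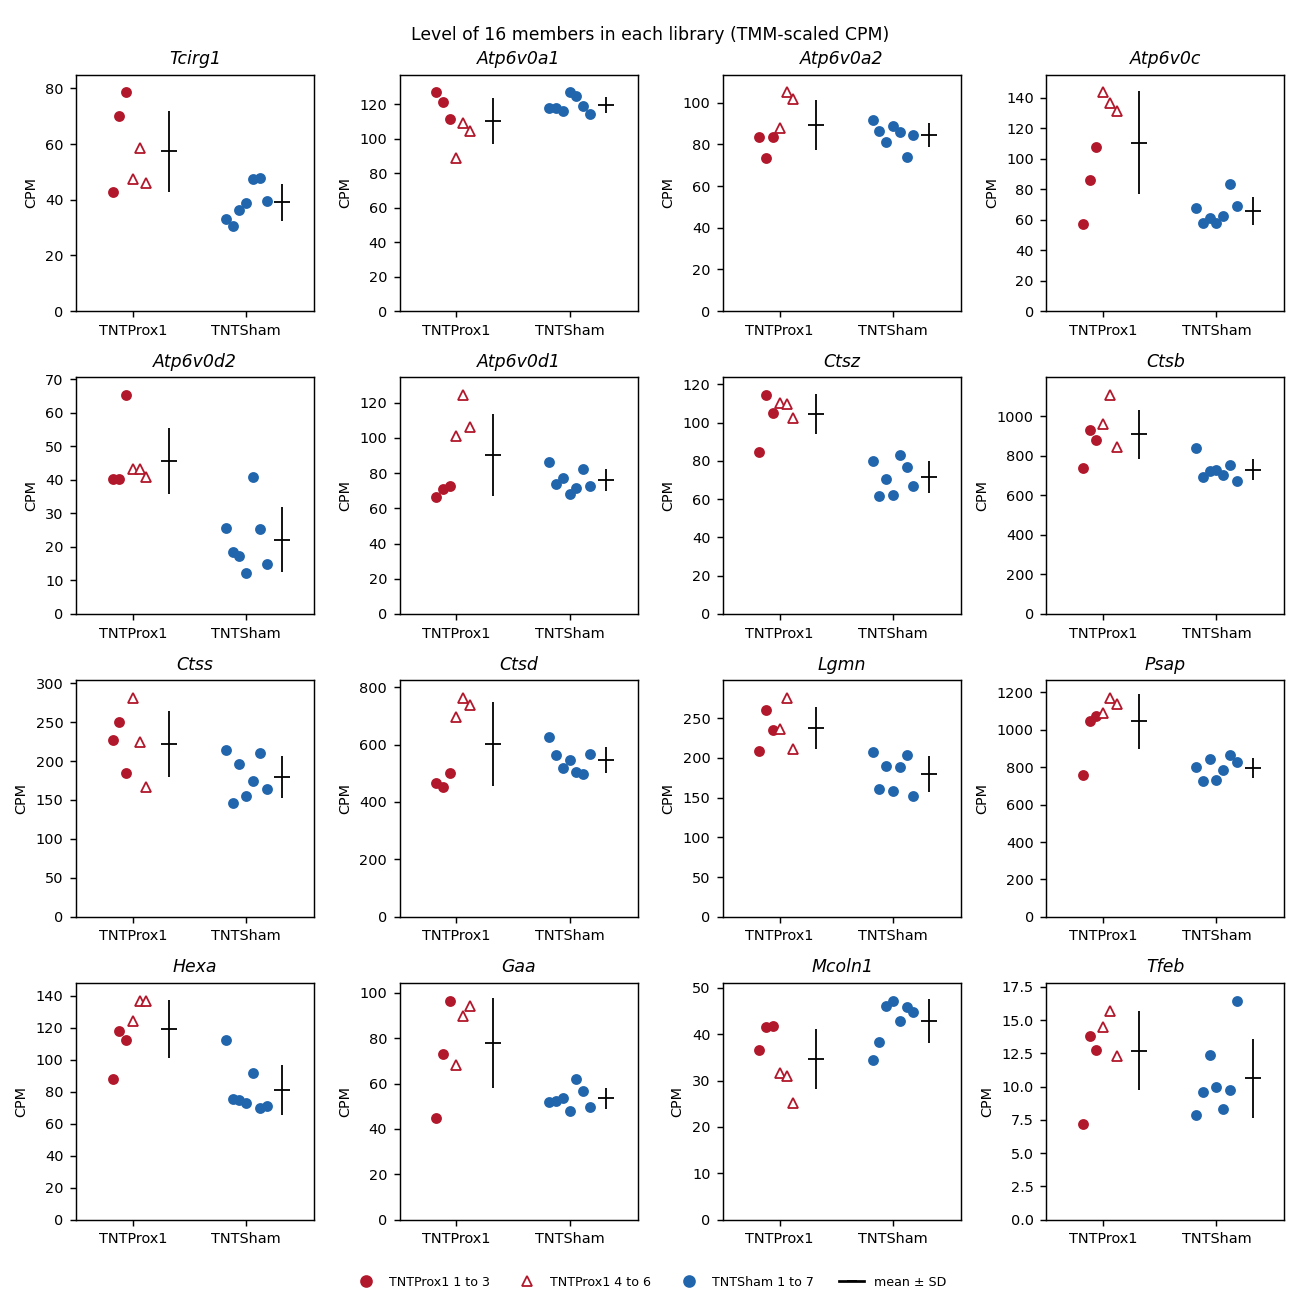
TMM-scaled CPM of 16 members in each library (y axis from 0), with mean and SD of each group beside the points and TNTProx1 4 to 6 as open triangles. For Atp6v0d1 and Ctsd the triangles stand above the other TNTProx1 libraries, for Mcoln1 they stand below them, and for Ctsz and Lgmn all 6 TNTProx1 libraries stand above TNTSham.

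Read library by library, most members were highest in one of TNTProx1 4 to 6. In 24 of 39 members (61.5%) TNTProx1 4, 5 and 6 were all above the TNTSham range, against 12.8% of all tested genes. In 2 of 39 (5.13%), Ctsz and Lgmn, TNTProx1 1, 2 and 3 were all above it, against 3.41% of genes tested with 10 libraries, a share near that background. Ctsz and Lgmn are also among the 24. TNTProx1 1, 2 and 3 were all below the TNTSham range in 0 of 39 members, against 5.61% of those genes. Of the 32 broadly expressed members, 21 had TNTProx1 4 to 6 all above TNTSham and 0 had TNTProx1 1 to 3 all above. TNTProx1 5 was the highest of the 13 libraries for 16 members and TNTProx1 4 for 11. The lowest library was TNTProx1 1 for 11 members and TNTProx1 2 for 8. These sets were defined from the data, so the counts are a description with no test.

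**Figure D4:**
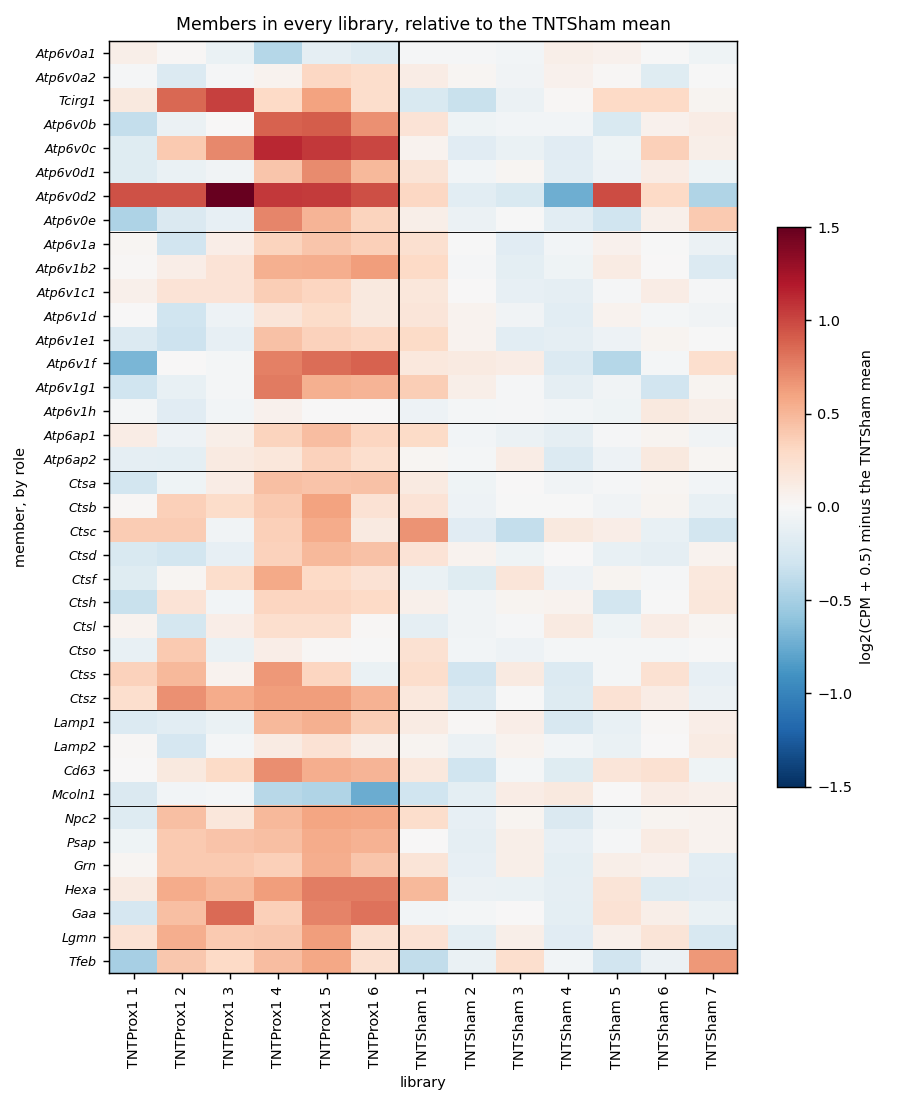
Log2(CPM + 0.5) of each member (rows, by role) in each library (columns), less the TNTSham mean of that member. TNTProx1 4 to 6 are red across most rows and blue for Mcoln1 and Atp6v0a1, whereas TNTProx1 2 is most red for Atp6v0d2, Tcirg1 and Ctsz, TNTProx1 3 for Atp6v0d2, Tcirg1 and Gaa, and TNTProx1 1 for Atp6v0d2.

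Marker genes of cells rich in these proteins were set beside the members. All 12 osteoclast markers were positive, at a median of 0.98 on the log2 scale and of 1.21 with 10 libraries. Of these markers, 10 were higher at an unadjusted p under 0.05, against 8.33% of all tested genes. With 10 libraries 11 of 12 were positive, and Car2, a carbonic anhydrase also made outside bone, was lower at an unadjusted p under 0.05, at -0.87; it was chosen for mention after its value was seen. Their summed level was 1288 to 2452 CPM in TNTProx1 and 648 to 1280 CPM in TNTSham, and none of the 12 was at 0 in all libraries. Ctsk, the collagen-degrading cathepsin of osteoclasts, averaged 828 ± 138 CPM in TNTProx1 and 451 ± 96.9 CPM in TNTSham, and Acp5, the osteoclast acid phosphatase, 247 ± 74.2 CPM and 88.7 ± 34.4 CPM. Mmp9, a gelatinase, had a log2 fold change of 1.49 ± 0.32. Like Atp6v0d2, the osteoclast sum was highest in TNTProx1 3 and, within TNTSham, highest in TNTSham 5. Osteoblast markers summed to 1289 to 1933 CPM in TNTProx1 and 353 to 1432 CPM in TNTSham, so bone markers stood higher in the same group as the osteoclast subunits, and their part in the result was not tested. Ctsk was also on the list of further cathepsins.

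Macrophage markers differed less. Of 16, 15 were positive and 9 were higher at an unadjusted p under 0.05, against 8.33% of all tested genes. The median of these markers was 0.37 with 13 libraries and 0.29 with 10. Their summed level was 1948 to 2916 CPM in TNTProx1 and 1682 to 2643 CPM in TNTSham, with TNTSham 1 the highest of its group. Fcgr1, an antibody receptor, had a log2 fold change of 0.73 ± 0.22, Laptm5, a lysosomal protein of blood cells, 0.36 ± 0.11 and Cd68, a macrophage lysosomal glycoprotein, 0.39 ± 0.14. Their part in the values of Ctss, Ctsz and Lgmn was not tested. Medians were -0.10 for the 5 tested neutrophil markers, 0.06 for Langerhans and dendritic cell markers, 0.03 for mast cell and -0.03 for melanocyte markers. Skeletal muscle markers had a median of -0.77, with 5 of 8 lower at an unadjusted p under 0.05, against 3.92% of all tested genes.

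**Figure D5:**
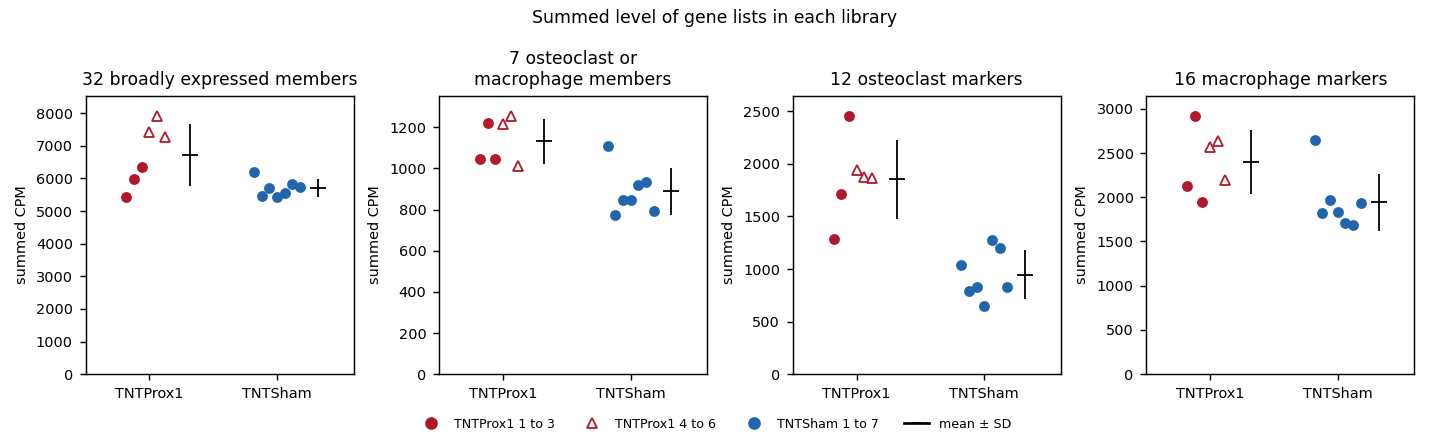
Summed CPM of 4 gene lists in each library (y axis from 0), with mean and SD. The 32 broadly expressed members stand above TNTSham mainly in TNTProx1 4 to 6, while the osteoclast markers stand at 1288 CPM or more in TNTProx1 and at 1280 CPM or less in TNTSham.

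Other lysosomal genes differed by class. Of 27 further hydrolases, 23 were positive, at a median of 0.22. At an unadjusted p under 0.05, 15 were higher, against 8.33% of all tested genes. With 10 libraries the median was 0.18. Then 9 were higher and 3 lower at that threshold, against 9.34% and 12.1% of genes. Arsb, a sulfatase of glycosaminoglycan breakdown, averaged 105 ± 21.7 CPM in TNTProx1 and 59.7 ± 16.6 CPM in TNTSham, and Gla, an alpha-galactosidase, had a log2 fold change of 0.70 ± 0.18. Of 13 tested lysosomal membrane genes, 0 were under that threshold, and the 3 of smallest p, Ostm1, Laptm4a and Clcn7, had 0.13, 0.22 and 0.11. With 10 libraries Laptm4a was at -0.13, and Ostm1 and Clcn7 were at 0.10 and 0.15. Ostm1 and Clcn7 encode the chloride transporter that works beside the pump in osteoclasts.

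Sorting, regulatory and inhibitor genes showed little with 13 libraries. Of 9 genes that sort enzymes to the lysosome, 2 were higher at an unadjusted p under 0.05, against 8.33% of all tested genes. These were Nagpa (0.39 ± 0.18) and Gnptab (0.18 ± 0.08), and Gga1 had 0.31 ± 0.15. With 10 libraries Nagpa was at -0.07 and Gga1 at -0.03, while Gnptab was at 0.25. Then 3 of the 9 were higher and 1 was lower at that threshold, against 9.34% and 12.1% of genes. Among 17 genes of Tfeb relatives and the mTORC1 pathway that restrains Tfeb, Rragd was the 1 gene under that threshold with 13 libraries. Rragd was at -0.43 ± 0.20, with Zkscan3 at -0.30 ± 0.14 and Tfec at 0.33 ± 0.20. Of all tested genes 3.92% were lower at that threshold with 13 libraries. With 10 libraries these were -0.78 for Rragd, -0.03 for Zkscan3 and 0.52 for Tfec. Then 1 of the 17 was higher and 3 were lower at that threshold, against 9.34% and 12.1% of genes. With 13 libraries none of the 4 cystatins, which inhibit cysteine cathepsins, was under it. Cst3, Cst6 and Cstb had 0.45 ± 0.21, -0.36 ± 0.33 and -0.09 ± 0.19. With 10 libraries Cst3 was at -0.03. Cst6 and Cstb were then lower at an unadjusted p under 0.05, at -0.91 and -0.51, against 12.1% of genes. The 5 tested tissue-restricted pump subunits were all negative, with Atp6v1c2 at -0.46 ± 0.21 under that threshold, Atp6v1b1 at -0.55 ± 0.52 and Atp6v0a4 at -0.17 ± 0.20. Beyond Ctsk, the further cathepsins tested were Ctse (-0.37 ± 0.28) and Ctsw (0.09 ± 0.53), neither under it.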

How the data were processed

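The submitters' processing notes name fastp 0.20.1, HISAT2 2.2.1, the build GRCm39 and featureCounts of Subread 2.0.2, and the deposited values were unnormalized counts for each gene. Strand setting, annotation release and handling of multiply aligned reads were not stated in the sources, so members with close copies are uncertain in that respect. Of 55357 identifiers, 52081 matched GENCODE M21, used for symbols, gene classes and exonic length. With edgeR 4.0.16 (R 4.3.3), filterByExpr kept 22876 of 55357 genes, TMM set the library scale, and a quasi-likelihood F test compared groups with no covariate, adjusted by Benjamini-Hochberg over all tested genes at 0.05. No 2 libraries were identical (Spearman 0.857 to 0.956). Paralog ratios used log2(CPM + 0.5) and an exact permutation of libraries. Alternatives were DESeq2 1.42.0 (Wald), edgeR with upper quartile or DESeq2 size factors, no filter, at least 1 CPM in 6 libraries, a robust fit, limma 3.58.1 voom with quality weights, the TEC share as a covariate, 10 libraries, and each library left out. Values per library were given for the 8 members of smallest p, the paralog sets, and Ctsb, Ctsd, Ctsl, Ctss, Lamp1, Mcoln1 and Tfeb, and of each further list the 3 genes of smallest p were named, except 1 gene that is not reported here. Members, lists and tests were chosen with earlier results of these data known. Scripts were tested on simulated counts, where DESeq2 made more false calls than edgeR or voom. Of 50 genes changed 1.5-fold, edgeR recovered 7, DESeq2 13 and voom 7. Of 50 changed 2-fold they recovered 24, 26 and 23.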

Additional observations from a re-analysis of the deposited data

Results flagged for a closer look

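Of 78 groups (39 members in TNTProx1 and in TNTSham), 7 had a library whose gap to its nearest neighbour was large against the whole range of the group, a pattern that chance gives in about 1 in 20 groups. Atp6v0d2 stood at 65.4 CPM in TNTProx1 3, against 43.4 CPM in the next library. Ctso, an ubiquitous cathepsin, stood at 30.9 CPM in TNTProx1 2, against 25.1 CPM in the next. Psap stood at 761 CPM in TNTProx1 1, the lowest of its group, against 1048 CPM in the next. The remaining 4 were all in TNTSham 1, the 1 library with abundant Xist (2095 CPM, against 2.01 CPM or less in the other 12). There, Ctsc stood at 417 CPM against 288 CPM in the next TNTSham library, Atp6ap1 at 194 against 164 CPM, Atp6v1e1 at 106 against 89.7 CPM and Ctso at 27.4 against 23.3 CPM. Macrophage markers were also highest in TNTSham 1 within its group, and their part in these values was not tested.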

How the results depend on the processing

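No paired analysis was possible because the labels number each sample once across both groups, and the replicate numbers used here only name libraries in the order of the samples. All genes called numbered 619 with DESeq2, 573 with limma voom, 545 with the TEC covariate and 1 without the filter, against 0; leaving out single libraries gave 0 to 589 (589 without TNTProx1 1, 34 without TNTSham 5). Members called numbered 9, 9 and 3 in the first 3 of these fits and 0 to 10 with a library left out (10 without TNTProx1 1, 2 without TNTSham 5). With 10 libraries 8 members were under an unadjusted p of 0.05, against 17. The median of the members was 0.088 with voom, 0.036 with 10 libraries and 0.072 with the TEC covariate, and that of the broadly expressed members 0.081, -0.040 and 0.029. The median of the osteoclast and macrophage members lay between 0.36 and 0.44 in all these fits.

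The ratio of Tcirg1 to Atp6v0a2 differed by 0.75 with 10 libraries (exact permutation p = 0.0250), a set of libraries chosen from the data. With a library left out it differed by 0.34 to 0.56, passing without TNTProx1 6 or TNTSham 6. The other ratios passed in each of the 13 such fits.

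Signs turned for 18 members that were not called. With voom these were Atp6v0a2 (-0.012), Atp6v0e (-0.075), Atp6v1d (-0.052), Atp6v1e1 (-0.079), Ctsd (-0.080), Lamp1 (-0.039) and Lamp2 (-0.019). With the TEC covariate they were Atp6v0a2 (-0.029), Atp6v0e (-0.11), Atp6v1d (-0.068), Atp6v1e1 (-0.11), Atp6v1f (-0.023), Atp6v1g1 (-0.013), Ctsd (-0.093), Lamp1 (-0.040) and Lamp2 (-0.047). With 10 libraries they were Atp6v0a1 (0.0048), Atp6v0a2 (-0.081), Atp6v0b (-0.15), Atp6v0d1 (-0.12), Atp6v0e (-0.28), Atp6v1a (-0.046), Atp6v1d (-0.12), Atp6v1e1 (-0.22), Atp6v1f (-0.23), Atp6v1g1 (-0.16), Atp6ap2 (-0.047), Ctsa (-0.070), Ctsd (-0.21), Ctsh (-0.048), Ctsl (-0.035), Lamp1 (-0.16) and Lamp2 (-0.089). With a library left out, Ctso ranged from -0.018 (without TNTProx1 2) to 0.10, Atp6v1d from -0.0016 to 0.11 and Lamp2 from -0.0074 to 0.083 (both lowest without TNTProx1 5). The cause of these changes was not tested.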
